A study of Mus musculus with 6 samples.

Results

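The genes described here are the nuclear genes of the mitochondrial respiratory chain and of ATP synthase in mouse embryonic stem cells. They were taken as the probe sets whose single gene symbol starts with Nduf, Uqcr, Cox4, Cox5, Cox6, Cox7, Cox8 or Atp5, or is Sdha, Sdhb, Sdhc, Sdhd, Cyc1 or Cycs. That gave 91 genes of the 19938 measured, with 1 probe set each. They are 34 subunits of complex I, 7 complex I assembly factors, 4 genes of complex II, 9 of complex III, cytochrome c, 19 of complex IV and 17 of ATP synthase. The assembly factors Ndufaf1 to Ndufaf7, the supercomplex factor Cox7a2l and the Ndufa4 relative Ndufa4l2 are not respiratory chain subunits in the strict sense and were kept because their symbols meet the rule. Ndufa4 is counted with complex IV, where its protein is now placed. The 3 cell lines compared, ♂M-1, ♂M-3 and ZM-1, are labelled as chromosome transfer embryonic stem cells, and the meaning of the ♂M and ZM prefixes is not spelled out. No genotype or added treatment separates them in the labels. All were kept on gelatin in DMEM with LIF, with PD0325901, which inhibits MEK, and with CHIR99021, an inhibitor of GSK3β. Each line is a single line with 2 biological repeats, so 6 arrays were analysed in all, and a difference between lines cannot be told apart from a difference between the kinds of line.

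The respiratory chain passes electrons from NADH (complex I) and succinate (complex II) through ubiquinone, complex III and cytochrome c to oxygen at complex IV. Complexes I, III and IV pump protons across the inner mitochondrial membrane, and ATP synthase uses the returning protons to make ATP. Most subunits are encoded in the nucleus and a minority in mitochondrial DNA, so the complexes are built from both sources. Naive embryonic stem cells are known for using respiration together with glycolysis, whereas primed cells lean on glycolysis.

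Intensities of the arrays were nearly equally distributed, with medians between 67.2 and 71.3 over all probe sets and lower quartiles between 23.8 and 25.1. Most of the respiratory genes gave strong signals: 86 of the 91 lay above the median of all genes and 67 above the upper quartile of all genes, and only Cox7b2 had line means below the highest lower quartile. Signals of different probe sets are not comparable as amounts, so each gene, or the sum of a marker list, is followed only across lines. Pou5f1, which marks embryonic stem cells, lay between 3561 and 3878 in the 6 arrays and was called between no pair of lines. Not all pluripotency genes were alike: of 12, 4 were called higher and 1 lower in ♂M-3 than in ZM-1, against 8.66% and 7.2% of all genes.

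The data show small differences, mostly toward higher values in ♂M-3. A gene is described as called, higher or lower when limma's moderated test gave an adjusted p under 0.05, with Benjamini-Hochberg adjustment over all 19938 genes. Between ♂M-3 and ZM-1, 12 of the 91 genes were higher in ♂M-3, 2 were lower and 77 were not called. Over all genes, 8.66% were called higher and 7.2% lower in that comparison (15.9% in either direction), and among genes above the upper quartile of intensity 14.6% were called higher. The 13.2% of respiratory genes called higher thus lay above the share of all genes and below the share of genes of high signal. At an unadjusted p under 0.05, 32 of the 91 were higher and 3 lower, against 3274 and 2706 of all genes. Among the 4985 genes above the upper quartile these counts were 1398 and 444. Between ♂M-3 and ♂M-1, 5 genes were higher and 0 lower in ♂M-3 by limma, against 3.32% and 3.22% of all genes (6.54% in either direction). At an unadjusted p under 0.05 the counts were 15 and 1. Over all genes they were 2197 and 1746, and over the 4985 genes above the upper quartile 717 and 405. Between ♂M-1 and ZM-1, 0 genes were higher and 1 was lower in ♂M-1 by limma, against 1.89% and 2.53% of all genes (4.41% in either direction). At an unadjusted p under 0.05 the counts were 12 and 5. Over all genes they were 1891 and 2090, and over the 4985 genes above the upper quartile 793 and 302. After quantile normalization the split was 9 higher and 3 lower for ♂M-3 against ZM-1, and 4 and 1 for ♂M-3 against ♂M-1, which median centring gave as 5 and 1. In all, 16 genes were called in at least 1 pair, and all 91 log2 differences stayed below 1 in size in the 3 pairs. Any pair of these comparisons shares the arrays of 1 line.

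Leaving out 1 array leaves its line with a single array, which is then assumed to vary like the other lines. In the fits given next, a smaller share of all genes was called. The 14 genes called between ♂M-3 and ZM-1 became 8 without ZM-1 repeat 1, 5 without ♂M-3 repeat 1 and 3 without ♂M-3 repeat 2, while the share of all genes fell from 15.9% to 12.6%, 6.83% and 6.53%. Between ♂M-3 and ♂M-1 the count was 2 without ♂M-1 repeat 1 (3.82% of all genes), and 0 without ♂M-1 repeat 2 (1.79%), ♂M-3 repeat 1 (2.35%) or ♂M-3 repeat 2 (2.1%). Where a gene's call was lost this way, its log2 difference was 67.4% to 122% of the full value. Its sign could not change, since the arrays of the compared lines did not overlap for any called gene. Leaving out an array of the line not compared left the difference as it was. The adjusted p-values given below for such fits do not by themselves show that a difference was gone. The lost calls listed below by gene leave out the fits with the replicate number as a block, which are given at the end. The median log2 difference of the 91 genes was 0.099 for ♂M-3 against ZM-1, 0.071 for ♂M-3 against ♂M-1 and 0.044 for ♂M-1 against ZM-1. Over all genes the medians were 0.002, 0.017 and −0.008, and over genes above the upper quartile they were 0.071, 0.034 and 0.04. The respiratory genes were thus nearest to the strongly expressed genes in ♂M-1 against ZM-1 and furthest from them in ♂M-3 against ♂M-1. The median of ♂M-1 against ZM-1 turned to −0.003 after quantile normalization. In ♂M-3 against ZM-1, 68 of the 91 differences (74.7%) were above 0, against 50.5% of all genes and 66.0% of genes above the upper quartile. For 51 genes (56.0%) both ♂M-3 arrays lay above both ZM-1 arrays, against 30.1% of all genes and 50.1% of genes above the upper quartile. For 13 they lay below, against 27.4% of all genes. In ♂M-3 against ♂M-1, 41 genes (45.1%) were without overlap higher and 5 lower, against 28.9% and 21.6% of all genes, and 37.8% of genes above the upper quartile were higher. In ♂M-1 against ZM-1 the counts were 28 (30.8%) and 16, against 23.0% and 25.9% of all genes, and 39.1% of genes above the upper quartile were higher. For 33 genes both ♂M-3 arrays lay above the 4 others, against 18.3% of all genes, and for 3 genes they lay below, against 13.5%. These shares were not counted among genes above the upper quartile, so the comparison does not allow for the strong signals of most of the 91.

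**Figure D1:**
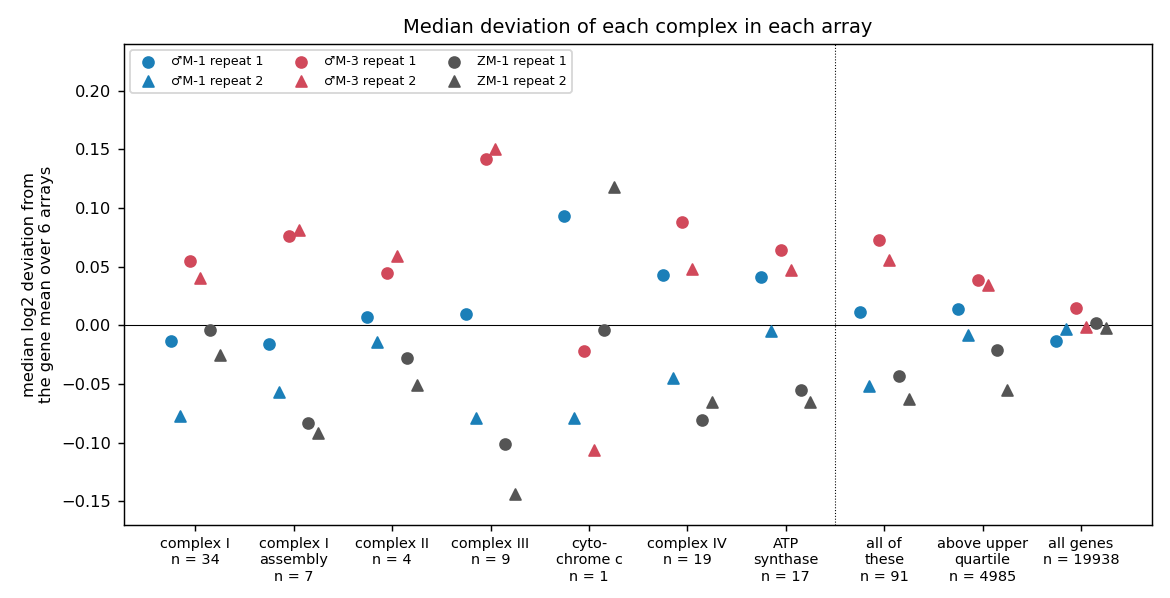
Median log2 deviation of each gene from its own mean over the 6 arrays, by complex (x axis) and array (points; color gives the line, shape the repeat); the y axis is in log2 units and n is the number of genes. The complex III medians of the ♂M-3 arrays, 0.142 and 0.15, stand above those of the ZM-1 arrays, −0.101 and −0.144, and genes above the upper quartile are plotted beside them.

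**Figure D2:**
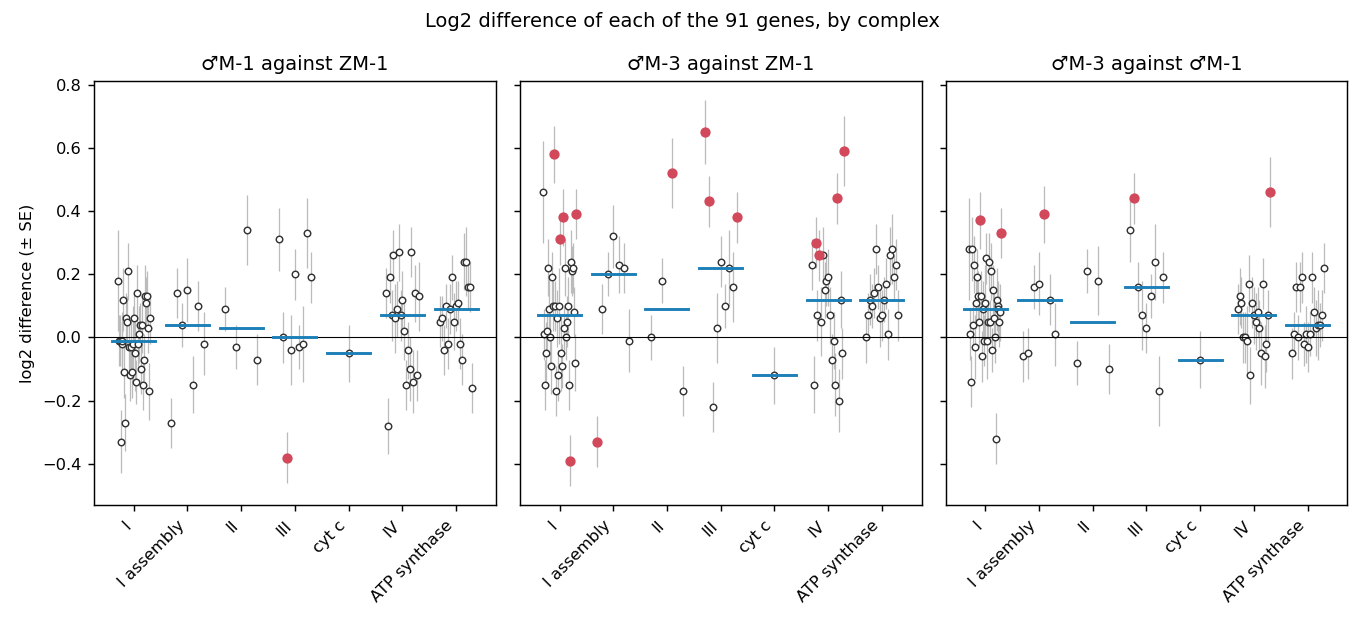
Log2 difference (y axis, ± SE from limma) of each of the 91 genes in the 3 comparisons, grouped by complex (x axis); filled red points passed an adjusted p of 0.05 and the blue bars are group medians. In ♂M-3 against ZM-1, 14 points are filled, 0 of them among the 17 ATP synthase genes, and 15.9% of all genes were called.

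Some of the 91 genes share promoter letters that the rule did not use. Of them, 74 have a promoter in the RefSeq table of GRCm38.p6, and the 250 bases before each transcription start were searched on both strands. The letters GCGC, any base and then TGCGC, the type of site bound by NRF1, a transcription factor known for activating respiratory genes, occurred in 13 of the 74 (17.6%) and in 4.23% of all 27025 genes with a promoter. CCGGAAG, the type of site bound by ETS factors such as GABPA, occurred in 13 (17.6%) against 7.83%. The Sp1-type letters GGGCGG, at 39.2% against 35.4%, and CCAAT, at 44.6% against 37.5%, were about as frequent as elsewhere. TCAAGGTCA (ERR type) was found in 1 of the 74 (1.35%) against 0.422%. Of the 12 called genes with a promoter in the table, 2 held the NRF1-type letters, Cox6a1 and Ndufs5, and of the 62 others 11 did. These matches describe the letters in the window and were not tested for binding. The NRF1-type sites are shown because these letters were more frequent here than among all promoters. Each is read 5′ to 3′ on the strand of the gene with up to 10 bases on either side, and capitals mark the motif, which may match on the opposite strand.
Atp5c1, chr2:10080433-10080459, - strand: ctgagctcccGCGCACGCGCactgagt
Atp5g2, chr15:102671070-102671099, - strand: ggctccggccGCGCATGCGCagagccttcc
Atp5h, chr11:115420041-115420070, - strand: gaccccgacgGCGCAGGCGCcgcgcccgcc
Atp5k, chr5:108434430-108434459, - strand: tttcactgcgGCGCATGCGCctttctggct
Cox6a1, chr5:115349056-115349085, - strand: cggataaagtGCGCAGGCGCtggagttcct
Cox6a1, chr5:115349101-115349130, - strand: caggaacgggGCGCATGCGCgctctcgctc
Ndufa11, chr17:56717692-56717721, + strand: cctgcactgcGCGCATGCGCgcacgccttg
Ndufa5, chr6:24527697-24527726, - strand: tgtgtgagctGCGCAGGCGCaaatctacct
Ndufa8, chr2:36049349-36049378, - strand: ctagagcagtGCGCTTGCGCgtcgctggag
Ndufaf4, chr4:24897960-24897989, + strand: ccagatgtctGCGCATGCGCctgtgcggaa
Ndufs5, chr4:123718265-123718294, - strand: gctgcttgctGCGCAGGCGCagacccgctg
Ndufs6, chr13:73328483-73328508, - strand: cgactgctgtGCGCCTGCGCcggcac
Sdha, chr13:74350241-74350260, - strand: gcgactcggtGCGCAAGCGC
Sdha, chr13:74350276-74350305, - strand: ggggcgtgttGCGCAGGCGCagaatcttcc
Sdha, chr13:74350319-74350348, - strand: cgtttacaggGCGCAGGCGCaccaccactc
Sdhd, chr9:50603909-50603938, - strand: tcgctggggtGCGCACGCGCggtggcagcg
Cox6a1, which was higher in ♂M-3 than in ZM-1, carries 2 NRF1-type sites, 107 and 152 bases before the start. Its upstream window, chr5:115348959-115349208 (minus strand), is printed with all NRF1, ETS, Sp1 and CCAAT letters in capitals.
Cox6a1: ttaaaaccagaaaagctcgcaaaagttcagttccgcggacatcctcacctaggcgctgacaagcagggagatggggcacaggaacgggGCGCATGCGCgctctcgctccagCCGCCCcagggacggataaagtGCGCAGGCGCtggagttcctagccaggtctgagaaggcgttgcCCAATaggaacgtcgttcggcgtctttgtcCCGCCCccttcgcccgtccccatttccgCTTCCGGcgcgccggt
Ndufs5, which was lower in ♂M-3, has the same kind of site 88 bases before its start, in chr4:123718187-123718436 (minus strand).
Ndufs5: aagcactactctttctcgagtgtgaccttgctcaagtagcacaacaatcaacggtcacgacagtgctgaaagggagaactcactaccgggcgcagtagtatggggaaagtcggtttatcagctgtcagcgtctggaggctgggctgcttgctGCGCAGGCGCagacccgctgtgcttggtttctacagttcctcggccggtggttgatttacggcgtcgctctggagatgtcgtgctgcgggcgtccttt
Ndufa9, which was higher in ♂M-3 against both other lines, held none of the motifs in chr6:126849145-126849394 (minus strand).
Ndufa9: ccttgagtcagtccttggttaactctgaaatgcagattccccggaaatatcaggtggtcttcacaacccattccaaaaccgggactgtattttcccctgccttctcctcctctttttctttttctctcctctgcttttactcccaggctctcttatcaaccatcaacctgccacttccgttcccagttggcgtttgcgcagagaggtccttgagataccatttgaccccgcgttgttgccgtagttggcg

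Complex I takes electrons from NADH and is the largest complex of the chain. Of its 34 genes, 4 (11.8%) were higher and 1 was lower in ♂M-3 than in ZM-1, with a median log2 difference of 0.073. Among all genes 8.66% were higher, and among genes above the upper quartile 14.6%, with a median of 0.071. Ndufa9, an accessory subunit near the ubiquinone site, measured 785 and 829 in the ♂M-3 arrays, 647 and 598 in ♂M-1, and 513 and 567 in ZM-1. The lines did not overlap, and ♂M-3 was the highest. Its level was 1.49-fold higher in ♂M-3 than in ZM-1 (log2 difference 0.58 ± 0.09 SE, limma adjusted p = 0.00259) and 1.3-fold higher than in ♂M-1 (adjusted p = 0.0347). The call against ZM-1 was kept under all 16 alternatives. The call against ♂M-1 was lost without ♂M-1 repeat 1 (adjusted p = 0.0763) or 2 (0.235), without ♂M-3 repeat 1 (0.119) or 2 (0.211), and after quantile normalization (0.0579).

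Ndufv3, a small accessory subunit of the NADH-oxidising arm, measured 822.5 and 846 in ♂M-3, 674 and 654 in ♂M-1, and 657 and 616 in ZM-1. Here ♂M-3 stood apart and the other lines overlapped. It was 1.31-fold higher in ♂M-3 than in ZM-1 (limma adjusted p = 0.00969) and 1.26-fold higher than in ♂M-1 (adjusted p = 0.0361). The call against ZM-1 was lost without ♂M-3 repeat 1 (0.051) or 2 (0.0732). The call against ♂M-1 was lost without ♂M-1 repeat 1 (0.108) or 2 (0.207) and without ♂M-3 repeat 1 (0.144) or 2 (0.206).

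Ndufb8 and Ndufb5 belong to the membrane arm, where protons are pumped. Ndufb8 measured 603 and 579 in ♂M-3, 536 and 469.5 in ♂M-1, and 453 and 456 in ZM-1, with no overlap between the lines. It was 1.3-fold higher in ♂M-3 than in ZM-1 (limma adjusted p = 0.0181), but was not called without ZM-1 repeat 1 (0.0546) or 2 (0.0561) and without ♂M-3 repeat 1 (0.108) or 2 (0.0741). Ndufb5 measured 991 and 942 in ♂M-3, 839.5 and 787 in ♂M-1, and 742 and 814 in ZM-1. Both ♂M-3 arrays were the highest, and ♂M-1 overlapped ZM-1. It was 1.24-fold higher in ♂M-3 than in ZM-1 (limma adjusted p = 0.0334), but was not called without ZM-1 repeat 1 (0.131), without ♂M-3 repeat 1 (0.173) or 2 (0.103), and after quantile normalization (0.0848).

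Ndufs5, an accessory subunit on the intermembrane side, went the other way. It measured 256.5 and 262 in ♂M-3, 311 and 339 in ♂M-1, and 357 and 324 in ZM-1, so that the ♂M-3 arrays were the lowest and the other lines overlapped. It was 1.31-fold lower in ♂M-3 than in ZM-1 (log2 difference −0.39 ± 0.08 SE, limma adjusted p = 0.015), but was not called without ZM-1 repeat 1 (0.0644) and without ♂M-3 repeat 1 (0.0875) or 2 (0.0741). Against ♂M-1 the log2 difference was −0.32 (adjusted p = 0.0548). The probe table also lists a probe set shared by Ndufs5 and its pseudogene, which was left out because it carries several symbols.

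The catalytic core of complex I was called in no pair by limma, against 4.41% to 15.9% of all genes by pair. It is represented by Ndufv1, the subunit that binds NADH, Ndufv2, Ndufs1, Ndufs3, Ndufs7 and Ndufs8, and their log2 differences between ♂M-3 and ZM-1 ran from −0.08 for Ndufv2 to 0.22 for Ndufs8. Ndufv1 measured 1003 and 1068 in ♂M-3 and 1008 and 947 in ZM-1, which overlapped. Ndufs8, an iron-sulfur subunit, measured 1704 and 1731 in ♂M-3, 1582 and 1646 in ♂M-1, and 1515 and 1429.7 in ZM-1. Its lines did not overlap, but the test did not call it (adjusted p = 0.079). Ndufs1, the largest iron-sulfur subunit, had a difference of 0.05 ± 0.08 SE (adjusted p = 0.754). Ndufab1, an acyl carrier protein that is also a complex I subunit, measured 639 and 574 in ♂M-3 and 565 and 566.5 in ZM-1 (limma adjusted p = 0.467). Between ♂M-1 and ZM-1, 0 of the 34 genes were called by limma, against 4.41% of all genes. At an unadjusted p under 0.05, 1 of the 34 was higher and 2 were lower. Their differences ran from −0.33 for Ndufa12, which measured 286 and 341 against 401 and 382, to 0.21 for Ndufa9.

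Among the 7 complex I assembly factors, which help build the complex without staying in it, Ndufaf1 was lower and Ndufaf5 higher. Ndufaf1 measured 251 and 270.4 in ♂M-3, 276 and 267 in ♂M-1, and 339 and 318 in ZM-1. The ZM-1 arrays were the highest, and the ♂M lines overlapped. It was 1.26-fold lower in ♂M-3 than in ZM-1 (limma adjusted p = 0.0226), but was not called without ZM-1 repeat 1 (0.087) and without ♂M-3 repeat 1 (0.145) or 2 (0.0637). In ♂M-1 against ZM-1 its log2 difference was −0.27 (adjusted p = 0.0947). Ndufaf5, which modifies the core subunit Ndufs7, measured 113 and 127 in ♂M-3, 95.3 and 87.2 in ♂M-1, and 106 and 97.0 in ZM-1. It was 1.31-fold higher in ♂M-3 than in ♂M-1 (limma adjusted p = 0.0396), but was not called without ♂M-1 repeat 1 (0.0851) or 2 (0.261) and without ♂M-3 repeat 1 (0.0814) or 2 (0.259). Ndufaf4, the factor with the highest difference against ZM-1 in both ♂M lines, measured 224 and 262 in ♂M-3 and 189.5 and 199 in ZM-1 (adjusted p = 0.067).

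Complex II, succinate dehydrogenase, also belongs to the citric acid cycle and is encoded wholly in the nucleus. Sdhc, a membrane anchor, measured 700.2 and 708 in ♂M-3, 676 and 568 in ♂M-1, and 543 and 444.5 in ZM-1. The lines did not overlap, although the ♂M-1 and ZM-1 repeats were far apart. It was 1.43-fold higher in ♂M-3 than in ZM-1 (log2 difference 0.52 ± 0.11 SE, limma adjusted p = 0.0166), but was not called without ZM-1 repeat 2 (0.0765) and without ♂M-3 repeat 1 (0.0758) or 2 (0.0874). The other subunits were not called in any pair. Sdha, the flavoprotein that oxidises succinate, measured 1522 ± 15.7 (SD, n = 2) in ♂M-3, 1614.5 ± 23.5 in ♂M-1 and 1521 ± 15.9 in ZM-1. Sdhb, the iron-sulfur subunit, measured 890 and 920.5 in ♂M-3, 782 and 779 in ♂M-1, and 816 and 779.7 in ZM-1, so that ♂M-3 was the highest (limma adjusted p = 0.134 against ZM-1). Sdhd, the other anchor, had the opposite order, with 591 and 613 in ♂M-3 and 710.4 and 642.5 in ZM-1 (adjusted p = 0.212). The median of the 4 genes was 0.091 for ♂M-3 against ZM-1.

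Complex III passes electrons from ubiquinol to cytochrome c. It had the highest median difference of the complexes between ♂M-3 and ZM-1, 0.223. Of its 9 genes, 3 (33.3%) were higher and 0 lower by limma, with 1 lower at an unadjusted p under 0.05. Among all genes 8.66% were called higher, and among genes above the upper quartile 14.6%. Cyc1, cytochrome c1, whose haem hands electrons to cytochrome c, measured 1833 and 1561 in ♂M-3, 1412 and 1268 in ♂M-1, and 1085 and 1076 in ZM-1. The lines did not overlap and ♂M-1 lay between the others. The difference between ♂M-3 and ZM-1 was the largest of the 91 genes, 1.56-fold (log2 difference 0.65 ± 0.1 SE, limma adjusted p = 0.00286), and was called under all 16 alternatives. For ♂M-1 against ZM-1 the log2 difference was 0.31 (adjusted p = 0.119), and for ♂M-3 against ♂M-1 it was 0.34 (adjusted p = 0.0808).

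Uqcr10 and Uqcrq are small subunits of complex III. Uqcr10 measured 403 and 435 in ♂M-3, 295 and 324 in ♂M-1, and 319 and 301 in ZM-1, so that ♂M-3 stood alone and the other lines overlapped. It was 1.35-fold higher in ♂M-3 than in ZM-1 (limma adjusted p = 0.01) and 1.35-fold higher than in ♂M-1 (adjusted p = 0.0179). The call against ZM-1 was lost without ♂M-3 repeat 2 (0.0831). The call against ♂M-1 was lost without ♂M-1 repeat 1 (0.107) or 2 (0.0648) and without ♂M-3 repeat 1 (0.0638) or 2 (0.14). Uqcrq measured 750.1 and 709 in ♂M-3, 643 and 633 in ♂M-1, and 572.5 and 549 in ZM-1, with no overlap. It was 1.3-fold higher in ♂M-3 than in ZM-1 (limma adjusted p = 0.0108), but was not called without ♂M-3 repeat 1 (0.0835).

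Uqcr11, another small subunit, was the only gene called between ♂M-1 and ZM-1. It measured 449 and 399.7 in ♂M-1, 482 and 464 in ♂M-3, and 537 and 564 in ZM-1, with ZM-1 the highest and no overlap between lines. It was 1.3-fold lower in ♂M-1 (log2 difference −0.38 ± 0.08 SE, limma adjusted p = 0.0409). Leaving out any 1 array ended that call, while the log2 difference stayed below 0. It was −0.46 and −0.29 without ♂M-1 repeat 1 and 2, −0.41 and −0.34 without ZM-1 repeat 1 and 2, and −0.38 without either ♂M-3 array. The call was also lost after median centring (limma adjusted p = 0.059), with the mean of its probe sets (0.0592) and in a fit of only the lines compared (0.0719). In ♂M-3 against ZM-1 its log2 difference was −0.22, without being called (adjusted p = 0.115).

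The remaining complex III genes were not called. Uqcrfs1, the Rieske iron-sulfur protein, measured 194.5 and 232 in ♂M-3 and 192 and 172.5 in ZM-1 (limma adjusted p = 0.254). The core proteins Uqcrc1 and Uqcrc2 had log2 differences of 0.24 and 0.1 between ♂M-3 and ZM-1 (adjusted p = 0.093 and 0.418). Uqcrh, the hinge protein at the cytochrome c site, measured 1336 and 1503 in ♂M-1, 1125 and 1400.1 in ♂M-3, and 1153 and 1098 in ZM-1, and its ♂M-3 repeats were further apart than the means of ♂M-3 and ZM-1. Cycs, cytochrome c itself, did not follow complex III with the probe set used here. It measured 3268 and 3083.5 in ♂M-3, 3540.4 and 3143 in ♂M-1, and 3310.2 and 3603 in ZM-1. The log2 difference between ♂M-3 and ZM-1 was −0.12 ± 0.09 SE (adjusted p = 0.41). The other Cycs probe sets had differences of 0.06 and 0.07, the latter at a mean intensity of only 21.1. The sign for Cycs thus depended on the probe set.

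**Figure D3:**
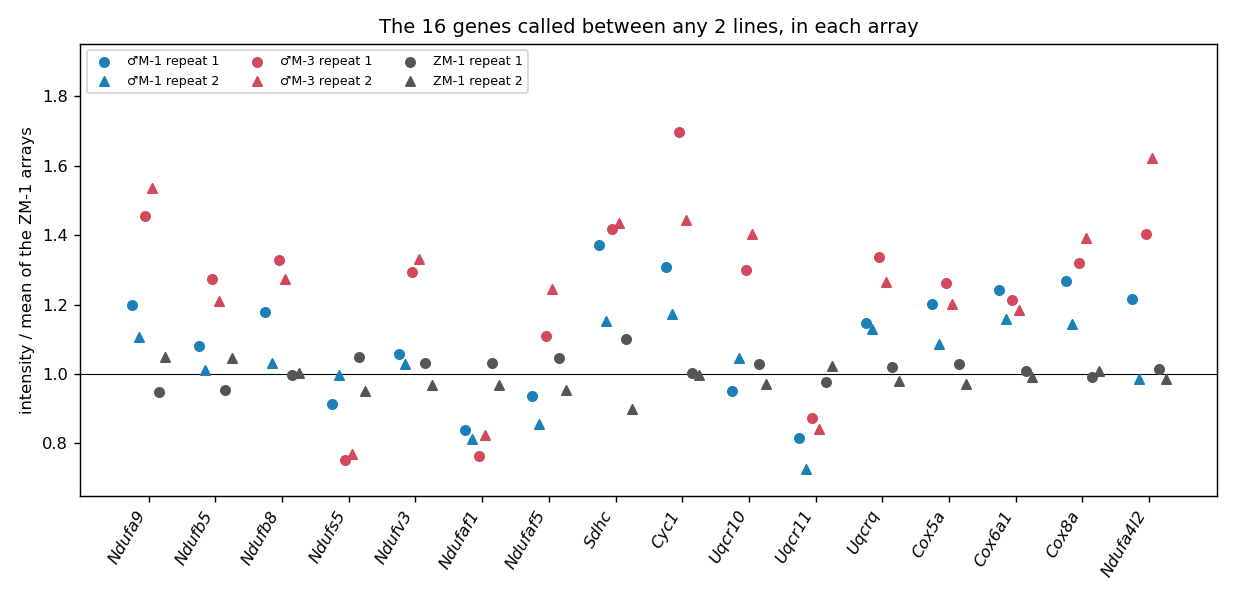
Intensity of the 16 genes called in at least 1 pair (x axis) in each of the 6 arrays, divided by the mean of the ZM-1 arrays of that gene (y axis, linear scale that does not start at 0); color gives the line and shape the repeat. The ♂M-3 arrays stand highest for Cyc1, Ndufa9 and Uqcr10, and lowest for Ndufs5.

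Complex IV, cytochrome c oxidase, reduces oxygen. Of its 19 genes, 4 (21.1%) were higher and 0 lower in ♂M-3 than in ZM-1 by limma, against 8.66% of all genes higher and 14.6% of genes above the upper quartile. Also 0 were lower at an unadjusted p under 0.05, and the median was 0.116. Cox8a, a small subunit, measured 1420.4 and 1500.5 in ♂M-3, 1367 and 1231 in ♂M-1, and 1069 and 1086 in ZM-1, with no overlap. It was 1.35-fold higher in ♂M-3 than in ZM-1 (limma adjusted p = 0.00817), but was not called without ♂M-3 repeat 2 (0.0683). Cox5a, a subunit on the matrix side, measured 930.1 and 887 in ♂M-3, 887 and 801 in ♂M-1, and 758 and 717 in ZM-1. It was 1.23-fold higher in ♂M-3 than in ZM-1 (limma adjusted p = 0.0396), but was not called without ZM-1 repeat 1 (0.0605) or 2 (0.145), without ♂M-3 repeat 1 (0.191) or 2 (0.118), and after quantile normalization (0.0886). Cox6a1 measured 711.5 and 695 in ♂M-3, 729.5 and 681 in ♂M-1, and 591.5 and 583 in ZM-1, and the ♂M lines overlapped above ZM-1. It was 1.2-fold higher in ♂M-3 than in ZM-1 (limma adjusted p = 0.0482) and had the same log2 difference of 0.26 in ♂M-1 (adjusted p = 0.0929). Leaving out any 1 array ended the call against ZM-1 in ♂M-3. The log2 difference was then 0.26 without either ♂M-1 array, 0.24 and 0.28 without ♂M-3 repeat 1 and 2, and 0.27 and 0.25 without ZM-1 repeat 1 and 2. The call was also lost after quantile normalization (limma adjusted p = 0.126) and in a fit of only the lines compared (0.0606).

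Other widely expressed subunits of the oxidase were not called. Cox4i1, the largest nuclear subunit, measured 960.0 and 984 in ♂M-3, 958 and 875 in ♂M-1, and 844 and 812.5 in ZM-1 (limma adjusted p = 0.0829 for ♂M-3 against ZM-1). Cox6b1, which links the monomers of the enzyme, measured 2251.5 and 2207 in ♂M-3 and 1764 and 1952.5 in ZM-1 (adjusted p = 0.0695). Cox5b, Cox7a2 and Cox7b had log2 differences of 0.07, 0.07 and −0.01 in that comparison, each smaller than its SE of 0.08, 0.09 and 0.09. Ndufa4 had the lowest difference of these subunits, −0.05 ± 0.08 SE.

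Some subunits of the oxidase have isoforms known from particular tissues. Ndufa4l2, a relative of Ndufa4 known as a hypoxia-induced gene, was the called gene of this group. It measured 198 and 229 in ♂M-3, 172 and 139 in ♂M-1, and 143 and 139 in ZM-1, with ♂M-3 above the others. It was 1.51-fold higher in ♂M-3 than in ZM-1 (log2 difference 0.59 ± 0.11 SE, limma adjusted p = 0.00861), but was not called without ♂M-3 repeat 2 (0.0697). It was 1.38-fold higher than in ♂M-1 (adjusted p = 0.0427), but was not called without ♂M-1 repeat 2 (0.281) and without ♂M-3 repeat 1 (0.0778) or 2 (0.266). The isoforms known from heart and muscle, Cox6a2, Cox7a1 and Cox8b, had log2 differences of 0.05, 0.19 and −0.2 between ♂M-3 and ZM-1 and were not called. The testis isoforms Cox6b2 and Cox8c had differences of 0.15 and 0.12, and Cox7b2, whose line means were 14.6 (♂M-1), 14.0 (♂M-3) and 15.7 (ZM-1), lay under the lower quartile of each array. Cox4i2, the lung isoform of Cox4i1, measured 161 and 173 in ♂M-3, 157 and 147 in ♂M-1, and 198 and 173 in ZM-1, with the lowest difference of complex IV in ♂M-1 against ZM-1 (−0.28, limma adjusted p = 0.125). Cox7a2l, which joins complexes III and IV, differed by −0.07 ± 0.08 SE between ♂M-3 and ZM-1.

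ATP synthase turns the proton gradient into ATP, with a catalytic F1 head, a rotating ring of c subunits and a peripheral stalk. None of its 17 genes was called in any pair by limma. Of all genes, 15.9% were called in ♂M-3 against ZM-1, 6.54% in ♂M-3 against ♂M-1 and 4.41% in ♂M-1 against ZM-1. Of genes above the upper quartile the shares were 19.7%, 7.6% and 4.71%. In 17 genes, such shares amount to few calls. At an unadjusted p under 0.05, 5 of the 17 were higher and 0 lower in ♂M-3 against ZM-1. In ♂M-3 against ♂M-1 and in ♂M-1 against ZM-1, 2 were higher and 0 lower in each. The counts over all 19938 genes were 3274 and 2706, 2197 and 1746, and 1891 and 2090. Of the 17, 16 had a log2 difference above 0 in ♂M-3 against ZM-1, and for 14 both ♂M-3 arrays lay above both ZM-1 arrays, with a median of 0.119. Of all genes, 50.5% had a difference above 0 and 30.1% were higher without overlap, and of genes above the upper quartile 66.0% and 50.1%. The medians were 0.098 for the 5 F1 genes, 0.163 for the 3 c ring genes, 0.094 for the 4 stalk genes and 0.193 for the 5 membrane accessory genes. Atp5b, the catalytic β subunit, measured 6563 and 6436 in ♂M-3, 6529 and 6349.5 in ♂M-1, and 6253 and 6096 in ZM-1. Its difference of 0.07 ± 0.07 SE was about the size of its error (limma adjusted p = 0.554). Atp5a1, the α subunit, had the lowest difference, with a mean of 3406 ± 131 (SD, n = 2) in ♂M-3, against 3410.1 ± 2.83 for ZM-1.

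The c subunit of the ring is encoded by Atp5g1, Atp5g2 and Atp5g3, whose mature proteins are the same. Atp5g1 measured 4241 and 4018 in ♂M-3, 3489 and 3762 in ♂M-1, and 3569 and 3258 in ZM-1, with ♂M-3 above the other lines, which overlapped (limma adjusted p = 0.056 against ZM-1). Atp5g2 measured 3758.5 and 3809 in ♂M-3, 3902 and 3796 in ♂M-1, and 3393 and 3366 in ZM-1, with both ♂M lines above ZM-1 (adjusted p = 0.168 and 0.193). Atp5g3 measured 1707 and 1519.9 in ♂M-3 and 1611.5 and 1491 in ZM-1, which overlapped. Atp5md, a small membrane subunit, had log2 differences against ZM-1 of 0.28 in ♂M-3 and 0.24 in ♂M-1. It measured 2662.5 and 2544 in ♂M-3, 2847 and 2251 in ♂M-1, and 2039.9 and 2263 in ZM-1. The ♂M-1 repeats were further apart than any pair of line means (limma adjusted p = 0.139 and 0.291). Atp5pb, the b subunit of the stalk, was lowest in ♂M-1, with 1349 and 1245.5 against 1554 and 1475.5 in ♂M-3 and 1445 and 1448 in ZM-1 (adjusted p = 0.147 for ♂M-3 against ♂M-1).

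Respiratory genes have many processed copies in the genome, so probe sets can share sequence with pseudogenes, and such genes are uncertain. In all, 18 of the 91 genes had several probe sets, 45 together. The rounded differences of all probe sets of a gene had 1 sign in 16 of the 18 genes for ♂M-3 against ZM-1. The count was 16 for ♂M-3 against ♂M-1 and 15 for ♂M-1 against ZM-1. In ♂M-3 against ZM-1 the exceptions were Cycs, at −0.12, 0.06 and 0.07, and Atp5pb, at 0.07 and a value that rounds to 0.0. Of the probe sets not used, 4 were called in that comparison, all of Atp5l, the g subunit of ATP synthase. The 6 Atp5l probe sets had log2 differences between 0.26 and 0.34, and that with the highest mean, used here, was not called (adjusted p = 0.0717 over genes). Uqcr11 was lower in ♂M-1 with its second probe set too, at −0.25 against −0.38, which was not called (limma adjusted p = 0.122). Cox7c, Ndufb4 and Ndufb4b were on probe sets with several symbols and were not analysed here.

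Other mitochondrial genes were followed by lists. Over 11 further lists, 159 genes were measured, of which 17 (10.7%) were higher and 1 (0.629%) was lower in ♂M-3 than in ZM-1, against 8.66% and 7.2% of all genes. Of the 159, 4 (2.52%) were higher and 0 lower in ♂M-3 against ♂M-1, where 3.32% of all genes were higher, and 0 were higher and 1 lower when ♂M-1 was set against ZM-1. At an unadjusted p under 0.05 the limma counts were 38 and 5, 20 and 0, and 14 and 13, against 3274 and 2706, 2197 and 1746, and 1891 and 2090 of the 19938 genes. Mitochondrial ribosomal proteins, which translate the mitochondrially encoded subunits, had 9 of 77 higher and 1 lower in ♂M-3 against ZM-1, with a median of 0.025. Among them, Mrpl19 was 1.4-fold and Mrps12 1.38-fold higher, and Mrps25 was 1.35-fold lower. Mrpl35 stood out in ♂M-1, where it measured 493 and 518, against 727 and 786 in ♂M-3 and 747 and 745 in ZM-1. The ♂M-1 level was 1.47-fold below ZM-1 (limma adjusted p = 0.005) and 1.5-fold below ♂M-3 (adjusted p = 0.00318).

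Other assembly factors had few calls, and each called gene was higher in ♂M-3 than in ZM-1, as were 8.66% of all genes. Bcs1l, which inserts the Rieske protein into complex III, was 1.34-fold higher, Tmem126b of complex I assembly 1.33-fold, Atpaf1, a chaperone of the F1 head, 1.25-fold, and Cox20, a chaperone of the COX2 subunit, 1.24-fold (limma adjusted p = 0.0172, 0.0199, 0.0175 and 0.0261). Cox20 was also higher against ♂M-1 (1.25-fold, adjusted p = 0.0443). Hccs, which attaches haem to cytochrome c and c1, measured 648 and 685 in ♂M-3, 619 and 650.0 in ♂M-1, and 539 and 537 in ZM-1, and was 1.24-fold higher in ♂M-3 than in ZM-1 (adjusted p = 0.0255). Pyruvate dehydrogenase and citric acid cycle genes had 1 of 16 higher, Suclg1 (1.35-fold), with a median of 0.108, and Suclg2 was 1.32-fold higher in ♂M-3 than in ♂M-1 (adjusted p = 0.0291). Of the 18 regulators of nuclear respiratory genes and mitochondrial DNA, among them Nrf1, Gabpa, Esrra, Ppargc1b and Tfam, 1 was higher, the polymerase subunit Polg2 (1.37-fold), with a median of 0.023. Slc25a5, an ATP and ADP carrier, was 1.21-fold higher.

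Of the 13 mitochondrially encoded subunits, 2 had a probe set with a single symbol. COX2, a catalytic subunit of complex IV, measured 5318 and 4853 in ♂M-3, 5812 and 5197 in ♂M-1, and 5423 and 5709 in ZM-1. ND3 of complex I measured 2068 and 2031 in ♂M-3, 2399.9 and 2072 in ♂M-1, and 2319 and 2284 in ZM-1. Both were lower on average in ♂M-3 than in ZM-1, by log2 differences of −0.13 and −0.17, without being called (limma adjusted p = 0.366 and 0.242). Of the nuclear genes of complex I 67.6% had differences above 0, and of complex IV 68.4%. These shares were near the 66.0% of genes above the upper quartile, against 50.5% of all genes.

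**Figure D4:**
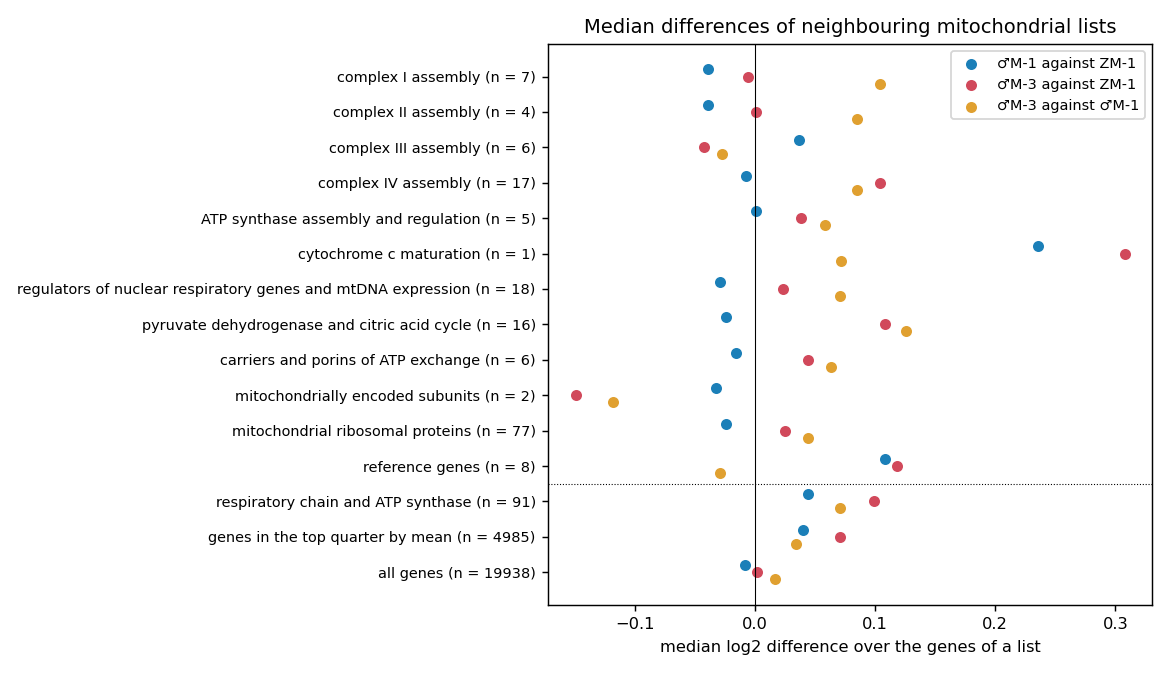
Median log2 difference (x axis) over the genes of each mitochondrial list (y axis, with the number of measured genes) in the 3 comparisons, beside the 91 respiratory chain and ATP synthase genes, genes above the upper quartile and all genes below the dotted line. The 91 genes lie at 0.099 and the mitochondrial ribosomal proteins at 0.025 in ♂M-3 against ZM-1, while the reference genes lie at 0.118.

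The differences of ♂M-3 came with other differences in the same arrays. Of 12 fibroblast markers, 10 were lower and 1 higher in ♂M-3 than in ZM-1, against 7.2% and 8.66% of all genes. The summed intensity of these markers was 3316 to 3341 in ♂M-3, 4158 to 4563 in ♂M-1 and 4449 to 4580.0 in ZM-1. The lowest marker, Lum, lay between 12.6 and 17.6, under the lower quartile of each array. In ♂M-3 against ♂M-1, 8 of the markers were lower and 1 was higher, against 3.22% and 3.32% of all genes. Of 12 pluripotency genes, 4 were higher and 1 lower in ♂M-3 than in ZM-1, against 8.66% and 7.2% of all genes. Zfp42 (2.47-fold), Tfcp2l1 (1.26-fold), Nanog (1.22-fold) and Utf1 (1.21-fold) were higher, and Dppa4 was 1.26-fold lower. The summed intensity of the 12 pluripotency genes was 28800.0 to 29561 in ♂M-3, 25873 to 26942 in ♂M-1 and 25992 to 26324 in ZM-1. Such sums are weighted toward the genes of strongest signal, called or not. Of the 8 measured reference genes, which include Actb and Ppia, 1 was higher in ♂M-3 than in ZM-1, and their median difference of 0.118 was above the 0.099 of the respiratory genes. Between ♂M-3 and ZM-1, limma called 0 of 8 primitive endoderm markers (1 lower at an unadjusted p under 0.05) and 0 of 4 mesoderm markers (1 higher), 1 of 7 trophectoderm markers higher and 1 lower, and 1 of 6 neural markers lower. In that comparison 8.66% of all genes were called higher and 7.2% lower. The part of these cell types in the respiratory differences was not tested. In bulk RNA, fewer cells of a type and less RNA per cell cannot be told apart.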

How the data were processed

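RNA of 6 embryonic stem cell samples, extracted with Trizol and labelled with the WT Terminal Labeling kit per the labels' protocols, was hybridised to 1 array each. The deposited values are intensities on a linear scale, made by the authors with GCOS 1.4 per the submitters' processing notes. Background correction and normalization: not given in the sources used here. Of 35556 probe sets, 21789 carried 1 gene symbol, 1621 carried several and 12146 were not listed in the probe table. Each of the 19938 genes was represented by its single-symbol probe set of highest mean. log2(intensity + 1) was fitted over all genes and lines with limma 3.58.1 in R 4.3.3 (lmFit, eBayes, 3 residual and 6.01 prior degrees of freedom), two-sided, with Benjamini-Hochberg adjustment and a threshold of 0.05. The script was tested on simulated data. The repeats are labelled biological, with no word on separate cultures, so p-values measure only the spread between these samples, and 2 arrays a line limit the precision. Named were all called genes, the highest and lowest difference per complex and pair, fixed key subunits, and up to 4 called genes per other list. The members and lists were chosen with earlier results of these data known. Replicate numbers did not pair the samples. Alternatives were another pseudocount, normalization, intensity filter, probe set rule, variance prior, fit, block and each array left out.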

Additional observations from a re-analysis of the deposited data

How the results depend on the processing

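Leaving out an array could not reverse the log2 difference of a called gene, since its arrays did not overlap. Under the other alternatives the log2 difference of no called gene changed sign. Of the medians, that of all 91 genes for ♂M-1 against ZM-1 did in 1 case, and those by complex did in 14 of 322, among them cytochrome c, which went from −0.122 to 0.005 for ♂M-3 against ZM-1 with the mean of probe sets, and complex II, from 0.027 to −0.018 for ♂M-1 against ZM-1 after quantile normalization. The called genes kept their call in 240 cases and lost it in 74, and of the medians by complex 271 stayed within the spread between repeats and 51 moved beyond it. For ♂M-1 against ZM-1, the 1 called gene became 6 among genes above the median intensity (13.1% of those genes were called), 10 with a variance trend (8.19% of all genes), 2 with a pseudocount of 16, and 0 with the mean of probe sets, median centring or a fit of only the lines compared. For ♂M-3 against ZM-1, 14 became 28 of 86 among genes above the median intensity (34.0%) and 32 with a variance trend (20.7% of all genes). For ♂M-3 against ♂M-1, 5 became 9 (18.1%) and 11 (9.73%). Leaving out each array gave 0.0 to 0.0 called genes for ♂M-1 against ZM-1, 3 to 14 for ♂M-3 against ZM-1 and 0 to 6 for ♂M-3 against ♂M-1, and medians of 0.004 to 0.064, 0.099 to 0.136 and 0.037 to 0.102. Median centring moved the medians to 0.076 for ♂M-1 and 0.128 for ♂M-3 against ZM-1, and quantile normalization to −0.003 and 0.057. The cause was not tested.

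The replicate numbers did not pair the samples (correlations of their deviations −0.0346, 0.067 and −0.105). With the replicate number as a block, 0 genes were called for ♂M-1 against ZM-1, 14 for ♂M-3 against ZM-1 and 1 for ♂M-3 against ♂M-1. The calls of ♂M-3 against ♂M-1 lost there were Ndufa9 (limma adjusted p = 0.0553), Ndufv3 (0.0572), Ndufaf5 (0.0633) and Ndufa4l2 (0.0663). Against ZM-1, Ndufb5 (0.0528) and Cox6a1 (0.065) were lost in ♂M-3, and Uqcr11 (0.0615) in ♂M-1. The crossed pairing, chosen after seeing the data like the fit of each probe set, called 12 for ♂M-3 against ZM-1. It lost Cox5a (limma adjusted p = 0.0535) and Cox6a1 (0.063). With 2 arrays a line, and an unstated normalization, small differences are limited by the spread between repeats.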
